A study of Homo sapiens with 6 samples.

Results

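TULP3, its relative TUB and genes of the Hedgehog pathway (GPR161, PTCH1, SMO, SUFU, GLI1, GLI2, GLI3 and HHIP) were examined. The data were RNA-seq of SW403 cells with and without knockdown of IRS2. The 10 genes were found by symbol among the 26490 in the count table, and all 10 were present. They were chosen by gene symbol, with measured values of this same comparison known. TULP3 is the lead gene and differs between the groups, and the other 9 are TUB and genes of the pathway around TULP3. Differences of these 10 genes between the groups are therefore a description, and no p-value is given for them. SW403 is an established line from a human colon adenocarcinoma. The study compared 3 control libraries (genotype labelled WT, sample descriptions NS) with 3 libraries labelled IRS2 knockdown (descriptions IRS2KO), from cultures grown for 24 h in serum-supplemented DMEM without further treatment. IRS2 encodes an adaptor of the insulin and IGF1 receptors. How it was lowered, what NS stands for, and whether a group holds more than 1 independently made line are not given in the sources used here. The titles call the libraries biological replicates and cells were seeded in triplicate, so p-values measure the spread between such cultures. In these bulk libraries, fewer cells that express a gene and less RNA per cell cannot be told apart.

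The Hedgehog pathway runs through the primary cilium, a single antenna-like organelle of most cell types. Without ligand, the receptor PTCH1 keeps the transducer SMO inactive, the receptor GPR161 is carried into the cilium by TULP3 and raises cyclic AMP, and GLI proteins, above all GLI3, are processed into repressors. Ligand (SHH, IHH or DHH) relieves PTCH1's block on SMO, GPR161 leaves the cilium, and activated GLI proteins raise their targets, of which GLI1, PTCH1 and HHIP are the classical readouts. In the intestine, ligand is made mostly by the epithelium and the response is seen mostly in the surrounding mesenchyme.

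The TULP3 gene spans GRCh37 chr12:2986389-3050304 on the plus strand in the GENCODE annotation. Its canonical coding transcript starts at 3000057, and 1 of its 8 transcripts, annotated as subject to nonsense-mediated decay, starts 13.7 kb upstream at the start of RHNO1. The RefSeq promoter window of TULP3 (GRCh38.p14 chr12:2890641-2890940, plus strand) is shown as the sequence at the start of the lead gene. It matched GRCh37 exactly and once, at chr12:2999807-3000106, so its start is that of the canonical transcript. Capitals mark the 50 bases from that start onward. Of the 5 RefSeq windows of PTCH1, 1 (GRCh38.p14 chr9:95509217-95509516, minus strand) is shown because it alone of the 5 holds the GLI consensus site GACCACCCA, here as its reverse complement TGGGTGGTC in capitals, beginning 172 bases before the start of that window's transcript.
TULP3: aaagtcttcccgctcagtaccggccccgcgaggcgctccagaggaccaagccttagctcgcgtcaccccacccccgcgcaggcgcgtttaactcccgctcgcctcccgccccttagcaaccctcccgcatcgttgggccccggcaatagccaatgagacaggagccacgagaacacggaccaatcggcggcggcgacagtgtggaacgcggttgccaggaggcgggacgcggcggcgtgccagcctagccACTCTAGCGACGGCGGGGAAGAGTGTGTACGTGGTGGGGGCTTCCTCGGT
PTCH1: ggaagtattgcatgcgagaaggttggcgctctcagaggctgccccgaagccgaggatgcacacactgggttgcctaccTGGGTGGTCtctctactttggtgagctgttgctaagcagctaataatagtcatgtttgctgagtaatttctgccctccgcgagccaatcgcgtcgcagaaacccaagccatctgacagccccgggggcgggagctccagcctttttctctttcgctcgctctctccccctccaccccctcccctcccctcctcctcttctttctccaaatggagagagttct

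Of the 10 members, 8 matched the RefSeq promoter table, with 19 windows of 300 bases. GLI1 and GLI3 did not match. The consensus site, searched on both strands, was present in 1 of these 19 windows, the PTCH1 window shown, and in 83 of all 35116 windows (0.236%). A match is a description of the letters only.

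The libraries held 11816973 to 12585013 counts in the control group and 14329348 to 18114656 in the knockdown group, so every knockdown library was the deeper. IRS2 itself was at 32.4, 34.8 and 32.2 CPM (counts per 1000000 counted in the library) in control and at 13.0, 12.3 and 11.9 CPM in knockdown, lower in all 3 libraries labelled knockdown (log2 fold change -1.39 ± 0.07 SE, edgeR adjusted p 3.12e-11). Across the 13832 genes that passed the expression filter, 38.5% were called by the quasi-likelihood test of edgeR (adjusted p below 0.05), 19.3% higher and 19.2% lower in knockdown, and for 48.4% the CPM values of the groups did not overlap. No replicate pair agreed within counting error (chi-square of counts per degree of freedom, 1.41 to 2.86). Of 12 colon epithelial markers, 6 were above 1 CPM in every library (EPCAM, KRT8, KRT18, KRT19, CDX2 and VIL1), while KRT20, CDX1 and CEACAM5 had 0 counts in all 6 and CDH1, LGALS4 and GPA33 were below 1 CPM throughout. Of 10 fibroblast markers, 6 were below 1 CPM in every library, and their summed level was 28.8, 11.4 and 9.56 CPM in control against 6.91, 5.98 and 7.62 CPM in knockdown. COL1A1 and COL3A1 in that list were called lower (log2 fold change -1.15 ± 0.28 and -1.71 ± 0.52 SE, edgeR adjusted p 0.0029 and 0.0136), and control replicate 1 had the highest collagen values (COL1A1 at 15.3 CPM against 5.73 and 5.67). The part of these transcripts in the results that follow was not tested beyond leaving out that library.

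The tubby-family genes TULP3 and TUB differed in opposite directions. TULP3, which binds phosphoinositides and the intraflagellar transport complex A and carries membrane receptors into the cilium, was at 22.0, 23.3 and 22.5 CPM in the control libraries and at 58.4, 56.8 and 54.6 CPM in the knockdown libraries. All 3 knockdown values lay far above all 3 control values, and the values within a group were close together. The means were 22.6 ± 0.664 and 56.6 ± 1.91 CPM (SD, n = 3 each), a log2 fold change of 1.35 ± 0.06 (SE) or 2.55-fold. Without control replicate 1, the library with the high collagen counts, it was 1.33.

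TUB (chr11:8040791-8127790, plus strand), the founding member of the family and best known from neurons, was lower. It was at 11.5, 13.6 and 12.2 CPM in control and 3.63, 3.81 and 3.48 CPM in knockdown. The groups did not overlap here either, and the log2 fold change of -1.74 ± 0.13 (SE), a 3.35-fold lower level, was the largest in size among the 8 members that passed the filter. Per kilobase of transcript, TULP3 exceeded TUB 4-, 3.59- and 3.87-fold in the control libraries and 33.7-, 31.2- and 32.8-fold in the knockdown libraries. The strand setting of the counting is not given in the sources used here, so reads of opposite-strand genes cannot be told apart from those of TUB. RIC3, with 188 exonic bases in common with TUB, had at most 2 counts in any library, and a long non-coding gene with 418 in common has no row in the count table. The same limit holds for HHIP, PTCH1, SMO and GLI1. HHIP has 813 exonic bases in common with HHIP-AS1, which had at most 4 counts in any library. PTCH1 and SMO have 711 and 129 in common with long non-coding genes without a row, and GLI1 has 5 in common with ARHGAP9.

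Of the rest of the family only 1 gene could be tested, and it gave no such shift. TULP4, a more distant relative with added domains, was at 24.2 to 28.5 CPM in control and 25.8 to 27.9 CPM in knockdown, with a log2 fold change of 0.01 ± 0.07 (SE) that did not pass the test (edgeR adjusted p 0.898). TULP1 and TULP2, which are known mainly from photoreceptors and testis, had at most 4 counts in any library and were not tested.

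**Figure D1:**
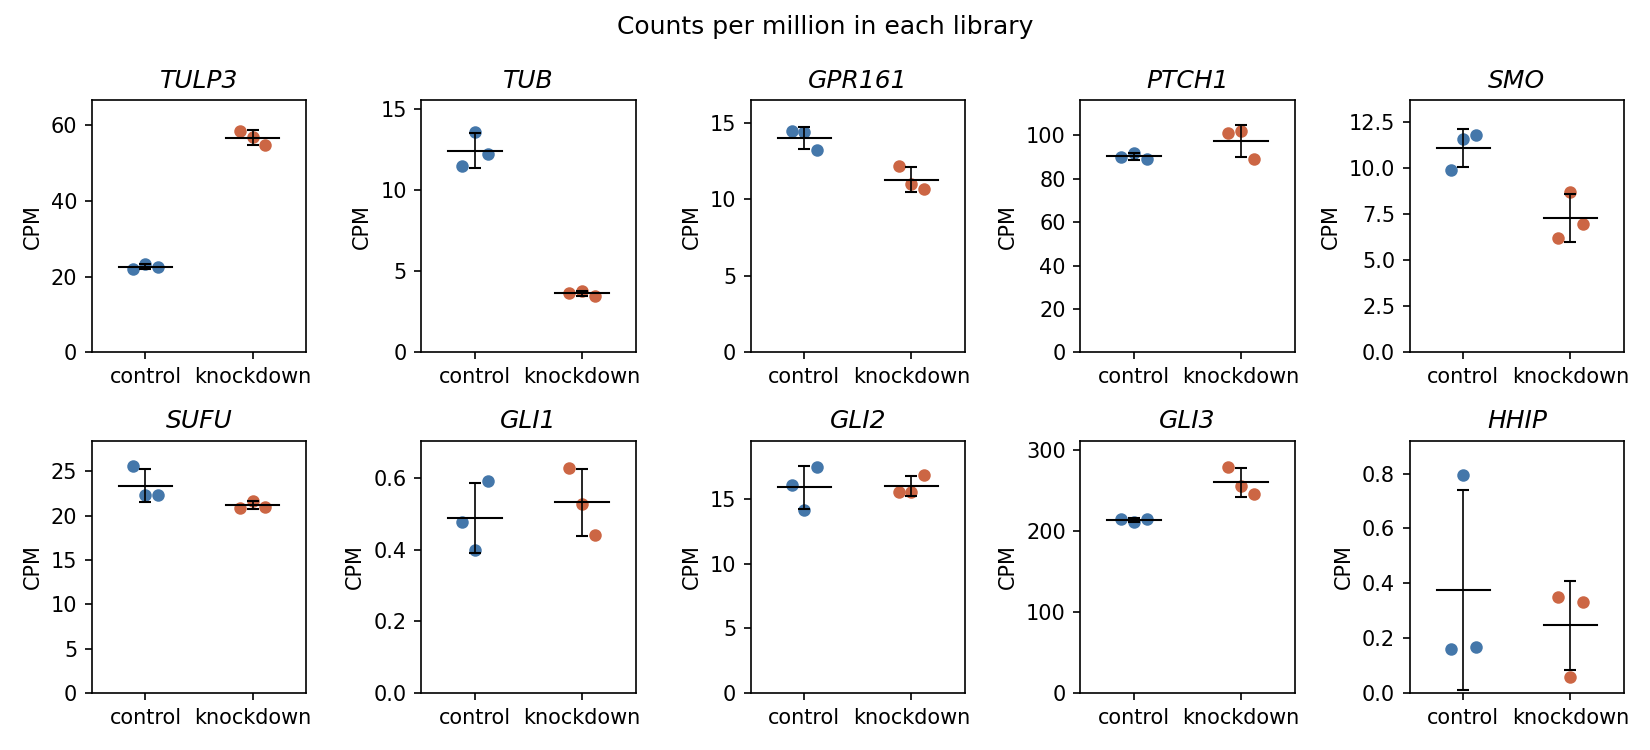
CPM (vertical axes, each starting at 0) of the 10 genes in the 3 control and 3 IRS2 knockdown libraries; points are libraries, the horizontal line is the mean and the bar is ± SD. TULP3 lies at 22.0 to 23.3 CPM in control and 54.6 to 58.4 CPM in knockdown, TUB at 11.5 to 13.6 and 3.48 to 3.81 CPM, and GLI1 and HHIP are below 1 CPM in all 6 libraries.

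The receptors of the pathway differed by less. GPR161 (chr1:168048780-168106905, minus strand), the constitutively active receptor that depends on TULP3 for entry into cilia, was at 14.5, 14.4 and 13.2 CPM in control and 12.2, 11 and 10.7 CPM in knockdown. Each knockdown library was below each control library, and the log2 fold change was -0.29 ± 0.09 (SE). SMO (chr7:128828474-128853386, plus strand), the transducer that PTCH1 holds inactive, was at 9.93, 11.6 and 11.8 CPM in control and 6.21, 8.73 and 6.96 CPM in knockdown. Its groups were also apart, with a wider spread and a log2 fold change of -0.57 ± 0.13 (SE), or 1.48-fold lower.

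PTCH1 (chr9:98205262-98279339, minus strand), both receptor and GLI target, was at 89.8, 92.0 and 89.0 CPM in control and 101, 102 and 88.8 CPM in knockdown. In CPM, which is scaled to library totals alone, the third knockdown library lay just under the lowest control library, so the groups overlapped. The log2 fold change was 0.13 ± 0.05 (SE). HHIP (chr4:145567308-145666423, plus strand), a decoy that binds the ligands and is itself a GLI target, was barely detected: 2, 10 and 2 counts in control and 5, 1 and 6 counts in knockdown. The ratio of summed counts over summed library totals, knockdown to control, was 0.640. Its exact 95% interval of 0.270 to 1.49 covers counting error only, so a difference was not detectable at this depth.

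Of the downstream genes, GLI3 differed most. GLI3 (chr7:42000547-42303699, minus strand), the GLI factor that acts mainly as a repressor, was at 215, 211 and 214 CPM in control and 279, 255 and 245 CPM in knockdown. The groups did not overlap, and the log2 fold change was 0.31 ± 0.04 (SE), or 1.24-fold. GLI2 (chr2:121493199-121750229, plus strand), the main activator, was at 16.1, 14.2 and 17.5 CPM in control and 15.6, 15.6 and 16.9 CPM in knockdown, with the knockdown values inside the control range (log2 fold change 0.04 ± 0.09 SE). SUFU (chr10:104263729-104393292, plus strand), which holds GLI proteins in the cytoplasm, was at 25.6, 22.3 and 22.3 CPM in control and 20.9, 21.7 and 21.0 CPM in knockdown. Its groups did not overlap, but only narrowly, and the log2 fold change was -0.11 ± 0.07 (SE).

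GLI1 (chr12:57853568-57866051, plus strand), the target gene most often read as the output of the pathway, was near the detection limit, with 6, 5 and 7 reads counted in control and 9, 9 and 8 in the deeper knockdown libraries. Scaled to depth this was 0.398 to 0.592 CPM in control and 0.442 to 0.628 CPM in knockdown, with overlapping groups. The ratio of summed counts over summed library totals, knockdown to control, was 1.08. Its exact 95% interval was 0.569 to 2.09 (counting error only). GLI1 and HHIP are the 2 members that did not pass the expression filter.

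Among the 8 that passed it, 6 were called in edgeR, 3 higher (TULP3, PTCH1 and GLI3) and 3 lower (TUB, GPR161 and SMO), beside the background of 38.5%. Nothing is read from this count or from the call of any single member, since the contrast was used in choosing the genes. The calls below only show how they depend on the settings. Their median log2 fold change was -0.03, beside -0.004 over all tested genes. CPM values did not overlap for 6 of the 8 (TULP3 and GLI3 higher; TUB, GPR161, SMO and SUFU lower), beside 48.4% of all tested genes. With 1 library left out in turn, 4 or 5 of the 8 were called. Over 15 alternative settings the call of PTCH1 was present in 7 and that of GPR161 in 10. GPR161 was not called without control replicate 1 or 2 or knockdown replicate 2 or 3, nor by DESeq2's Wald test. PTCH1 was not called without control replicate 1 or 3 or knockdown replicate 1 or 2, nor by DESeq2, with upper-quartile factors, with library size alone or with a filter at a mean of 50 counts.

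Levels of different genes were compared per kilobase of the canonical transcript. In control cells GLI3 was highest at 25.4 ± 0.248 CPM per kb, followed by PTCH1 at 10.4 ± 0.180, TULP3 at 7.34 ± 0.216 and SUFU at 4.66 ± 0.381 (SD, n = 3 each). The ranges of these 4 genes did not overlap. SMO followed at 2.79 ± 0.256, then GLI2 at 2.23 ± 0.236, TUB at 1.93 ± 0.166 and GPR161 at 1.79 ± 0.0912 CPM per kb. GLI2, TUB and GPR161 overlapped with their neighbours in that order. GLI1 at 0.123 ± 0.0246 and HHIP at 0.0377 ± 0.0367 CPM per kb came last. In knockdown cells TULP3, at 18.4 ± 0.621 CPM per kb, stood second, between GLI3 at 30.9 ± 2.05 and PTCH1 at 11.2 ± 0.836, with no overlap on either side. TUB, at 0.565 ± 0.0257, stood below GPR161 at 1.45 ± 0.103. With the union of all annotated exons as the length, which is 17281 in place of 8662 bases for PTCH1, TULP3 already stood second in control cells.

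**Figure D2:**
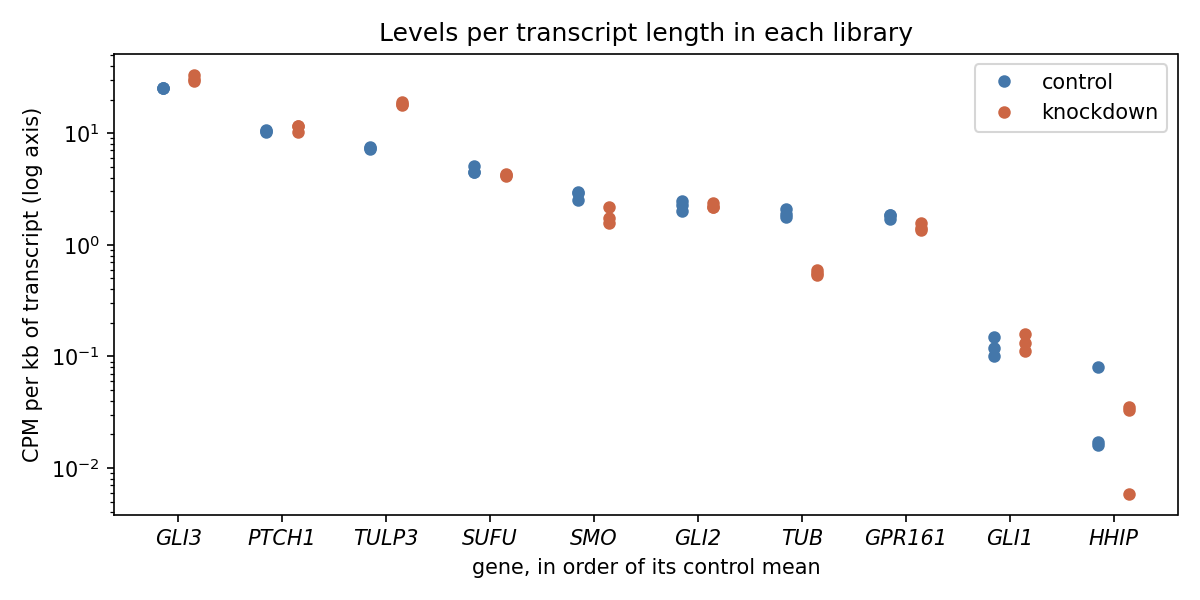
CPM per kilobase of canonical transcript (log axis) for the 10 genes, ordered by their control mean; each point is 1 library. TULP3 lies above PTCH1 in the knockdown libraries (17.7 to 19.0 against 10.2 to 11.7 CPM per kb), and GLI1 and HHIP lie more than a log unit below the other genes in control.

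Further genes of the pathway and of the tubby family were taken from 6 lists. The lists were tubby family, ligands and their release, co-receptors, ciliary machinery, regulators of SMO and GLI, and GLI targets. These lists hold 74 genes beyond the 10, of which 61 passed the filter. In edgeR 11 were called higher and 14 lower, together 41% of those tested beside 38.5% of all genes. These shares were close, but the lists were chosen with earlier results of these data known. Nothing further is read from the count. The median log2 fold change of the 61 genes was 0.01. Differences above 1 on the log2 scale were few: SHH was higher, and GPC3, GAS1, EVC and CCND2 were lower.

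Of 7 genes for ligands and their release, 4 could be tested, 1 rose and 1 fell. Over all tested genes, 19.3% were called higher and 19.2% lower. SHH, the Sonic hedgehog ligand, was at 3.26, 2.87 and 3.22 CPM in control and 8.10, 7.50 and 8.17 CPM in knockdown. All knockdown libraries lay above all control libraries, with a log2 fold change of 1.38 ± 0.14 (SE), 2.59-fold, and an edgeR adjusted p of 4.14e-07. This was the largest rise among the 61 genes, close in size to that of TULP3. IHH, the ligand of the differentiated colon epithelium, had 4 counts over all control libraries and 1 over all knockdown libraries, and DHH had 0 and 5.

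The release genes that could be tested changed little, while SCUBE2 had at most 2 counts in any library and was not tested. DISP2, a relative of the ligand exporter DISP1, fell by 0.27 on the log2 scale (SE 0.10, edgeR adjusted p 0.0452), a call that was lost when any 1 of the 6 libraries was left out (adjusted p 0.0514 to 0.182). DISP1 itself (log2 fold change 0.03, edgeR adjusted p 0.909) and HHAT, which adds the palmitate to the ligands (-0.24, adjusted p 0.357), did not pass.

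Surface proteins that bind the ligands fell or did not pass. Of 6 listed, 5 were tested and 2 fell, beside 19.2% of all tested genes called lower. GPC3, a glypican that competes with PTCH1 for ligand, was at 6.04, 5.97 and 6.60 CPM in control and 1.12, 1.41 and 1.44 CPM in knockdown. It fell 4.54-fold (log2 fold change -2.18 ± 0.19 SE, edgeR adjusted p 3.51e-08), more than any other gene of the 6 lists. GAS1, a co-receptor that promotes signalling, was at 4.29, 4.22 and 4.91 CPM in control and 1.67, 2.34 and 0.773 CPM in knockdown, with a wide spread among the knockdown libraries but no overlap (log2 fold change -1.46 ± 0.26 SE, edgeR adjusted p 0.00019). The other co-receptors CDON (0.09, adjusted p 0.39) and BOC (-0.19, adjusted p 0.076) and the endocytic receptor LRP2 (-0.33, adjusted p 0.173) did not pass.

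The list of ciliary machinery around TULP3 and GPR161, which includes cargoes of TULP3, held 24 genes. Of the 21 tested, 3 rose, 3 fell and 15 did not pass, beside 38.5% of all tested genes called. In intraflagellar transport complex A, the direct partner of TULP3, all 6 subunits were tested and IFT140 alone was called (log2 fold change -0.31 ± 0.10 SE, edgeR adjusted p 0.0194). That call was lost without control replicate 1 or 2 or knockdown replicate 1 or 2 (adjusted p 0.0609 to 0.0964). Of some known TULP3 cargoes in this list, PKD1, whose reads near-identical pseudogenes can share (-0.01, adjusted p 0.848), and PKD2 (0.07, adjusted p 0.444) did not pass. SSTR3 and MCHR1 had at most 1 count in any library and were not tested. The cargo GPR161 is described among the members, so no statement is made on cargoes as a group.

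The genes that rose in this list were ARRB1 (log2 fold change 0.37 ± 0.05 SE), KIF3B (0.33 ± 0.04) and GRK2 (0.13 ± 0.04), with edgeR adjusted p of 2.91e-06, 1.07e-06 and 0.00893. ARRB1 and GRK2 encode a beta-arrestin and a receptor kinase that act in the exit of GPR161 from cilia, and KIF3B is a subunit of the motor that moves cargo outward along the cilium. ADCY6 and PDE6D fell, by 0.40 and 0.38 on the log2 scale (SE 0.09 and 0.10, edgeR adjusted p 0.000879 and 0.00691). ADCY6 makes cyclic AMP, and PDE6D carries prenylated proteins to the cilium. The call of PDE6D was lost without control replicate 2 (adjusted p 0.055).

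Of 22 regulators of SMO and the GLI proteins, 21 were tested, 4 rose, 5 fell and 12 did not pass. The shares over all tested genes were 19.3% called higher and 19.2% lower. EVC, part of the complex that passes the SMO signal on at the base of the cilium, was at 2.86, 3.18 and 3.38 CPM in control and 0.907, 1.35 and 0.773 CPM in knockdown. It fell 3.03-fold without overlap (log2 fold change -1.60 ± 0.25 SE, edgeR adjusted p 4.92e-05), while its partner EVC2 had 0 counts in every library. KIF7, a ciliary-tip kinesin that organises GLI proteins, fell by 0.41 (SE 0.08), and the kinase gene CSNK1E by 0.21 (SE 0.04; edgeR adjusted p 0.000426 and 0.000193). NUMB, an adaptor in GLI1 degradation, PRKACB, a catalytic subunit of protein kinase A, and CUL1, the scaffold of a ubiquitin ligase that handles GLI3, rose by 0.24 ± 0.05, 0.22 ± 0.04 and 0.18 ± 0.03 on the log2 scale (SE, largest edgeR adjusted p 0.000752).

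Genes listed as GLI targets went both ways, as did tested genes in general (19.3% called higher and 19.2% lower). Of 13, 9 were tested, 3 rose, 3 fell and 3 did not pass. CCND1, the cyclin D1 gene, which is also a target of other pathways, rose by 0.51 ± 0.03 (SE), while CCND2, another D-type cyclin gene, fell 2.38-fold from 15.6, 16.3 and 17.9 CPM to 6.49, 7.85 and 6.13 CPM (log2 fold change -1.25 ± 0.11 SE, edgeR adjusted p 3.12e-08). BMP4 fell by 0.33 ± 0.05 (SE, edgeR adjusted p 2.25e-05). FOXL1, which with FOXF1 and FOXF2 is a mesenchymal target in the gut, fell by 0.29 (SE 0.09, edgeR adjusted p 0.0141), a call lost without control replicate 2 or knockdown replicate 1 (adjusted p 0.0663 to 0.0827). FOXF1 (-0.02, adjusted p 0.944) and FOXF2 (0.06, adjusted p 0.479) did not pass.

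JAG2, a Notch ligand gene, and SNAI1, a repressor of epithelial genes, rose by 0.23 ± 0.07 and 0.28 ± 0.09 (SE, edgeR adjusted p 0.01 and 0.0163). The call of JAG2 was lost without knockdown replicate 2 (adjusted p 0.0551) and that of SNAI1 without control replicate 1 or knockdown replicate 2 (0.0592 to 0.0607). Of the genes named from the lists, JAG2, SNAI1, FOXL1, PDE6D, IFT140 and DISP2 were not called by DESeq2's Wald test (adjusted p 0.0839, 0.148, 0.124, 0.0794, 0.148 and 0.28). MYCN, SFRP1 and NKX2-2 were below the filter.

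**Figure D3:**
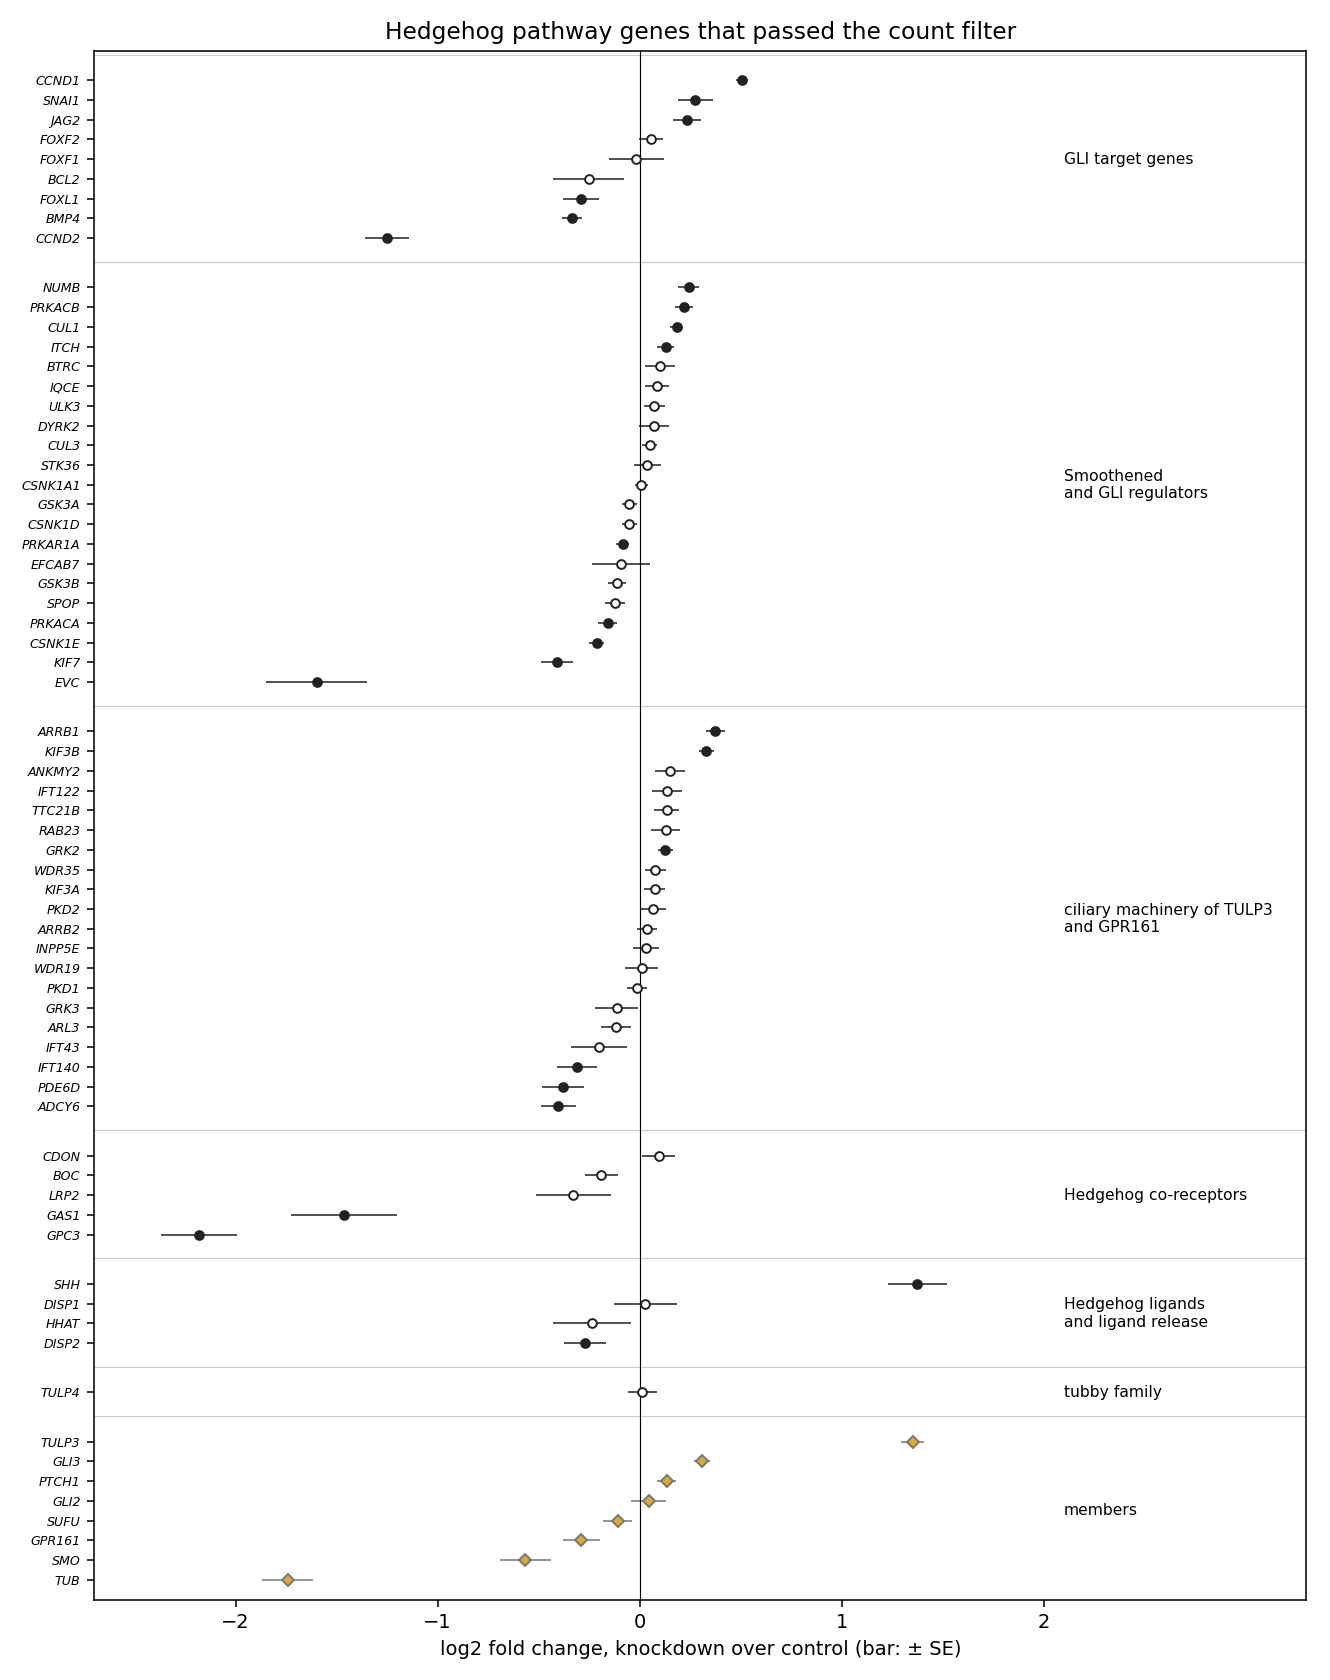
Log2 fold change of knockdown over control (horizontal axis, bar ± SE) for the 8 members (diamonds, described without a test) and 60 of the 61 tested genes of the 6 lists (filled circles were called at an adjusted p under 0.05 in edgeR, open circles were not). Most circles lie near 0, with SHH at 1.38 on one side and GPC3, EVC, GAS1 and CCND2 below -1 on the other.

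Next, the genes around TULP3 on chromosome 12 were examined. Within 250 kb of the TULP3 start, whether the first annotated or the canonical one, the annotation has 8 other protein-coding genes, of which 7 were tested, 2 rose and 0 fell, beside 19.3% of all tested genes called higher and 19.2% lower. Distances are between starts of canonical transcripts. FOXM1, the mitotic transcription factor gene 13717 bases upstream in the opposite orientation, had a control mean of 334 ± 2.1 CPM and a knockdown mean of 368 ± 1.08 CPM (SD, 3 libraries each), a log2 fold change of 0.17 ± 0.03 (SE, edgeR adjusted p 0.000118). RHNO1, a gene of the replication stress response, starts 13668 bases upstream on the same strand, and its canonical transcript shares 0 exonic bases with that of TULP3. Over all annotated transcripts they have 60 exonic bases in common. It was at 55.1, 59.9 and 60.3 CPM in control and 59.9, 60.2 and 58.8 CPM in knockdown, with overlapping groups (log2 fold change 0.06 ± 0.05 SE, edgeR adjusted p 0.361).

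FKBP4, a co-chaperone gene 95921 bases upstream, rose by 0.13 ± 0.03 (SE, edgeR adjusted p 0.00145). ITFG2 (-0.03, adjusted p 0.706), NRIP2 (-0.13, adjusted p 0.742), TEAD4 (0.11, adjusted p 0.0998) and TSPAN9 (-0.03, adjusted p 0.734) did not pass. TEAD4 passed without knockdown replicate 1 (0.16, adjusted p 0.0154). TEX52 had at most 3 counts in any library. The differences of the 7 neighbours ran from -0.13 to 0.17, against 1.35 for TULP3, and the difference between TULP3 and its neighbours was not tested.

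**Figure D4:**
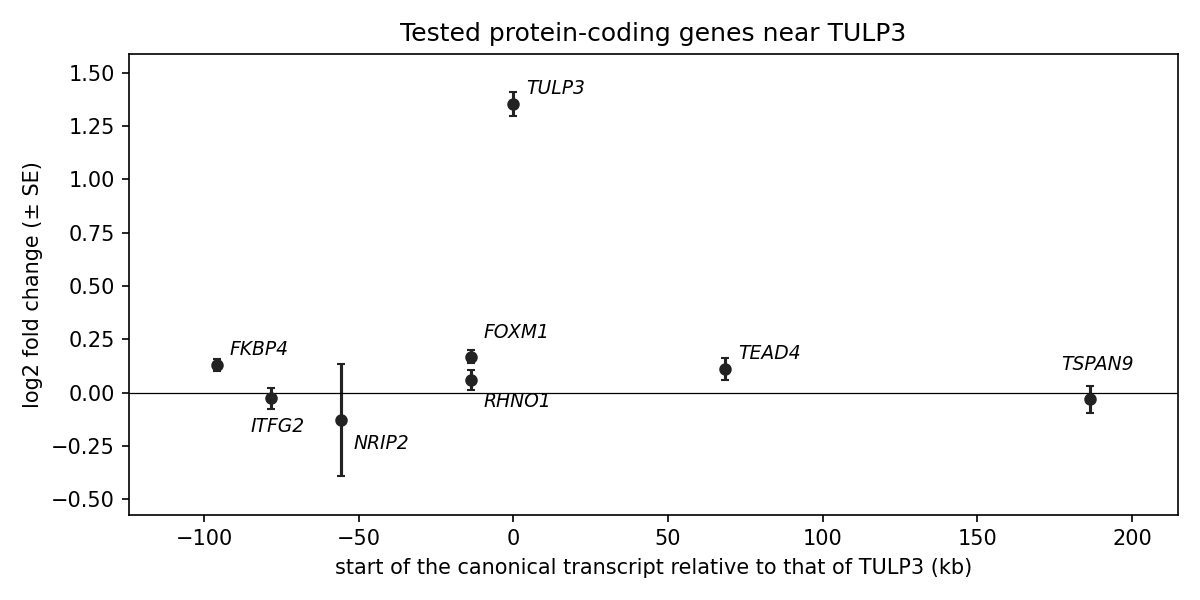
Log2 fold change of knockdown over control (vertical axis, bar ± SE) of TULP3 and the 7 tested protein-coding genes within 250 kb, against the distance in kb between the starts of their canonical transcripts and that of TULP3. TULP3 stands at 1.35, and the neighbours, including FOXM1 and RHNO1 just upstream, lie between -0.13 and 0.17.

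The genes whose profile over the 6 libraries was nearest to that of TULP3 were FGF19, DKK4, ERBB3, LGR6 and ABAT, in that order. Likeness was the Euclidean distance between log2 CPM profiles centred on each gene's control mean, which was 0.117, 0.233, 0.255, 0.257 and 0.293, among genes that averaged 100 counts or more. FGF19, a hormone-like growth factor of the intestine, was at 11.3, 11.6 and 11 CPM in control and 27.4, 27.5 and 28.0 CPM in knockdown. The ranking describes these 6 libraries and was set by the difference between the groups.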

How the data were processed

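RNA-seq of total RNA was made from 3 control and 3 IRS2 knockdown cultures of SW403 cells. The authors deposited whole-number counts per gene symbol and a table of normalized counts, a signal obtained, per the values deposited, by dividing each library's counts by 1 constant. The submitters' processing notes name STAR 2.6.1a, Salmon, DESeq2 and hg19; annotation and strand setting are not given in the sources used here. Counts were tested with edgeR 4.0.16 in R 4.3.3 (TMM, filterByExpr, quasi-likelihood F-test, no covariates, Benjamini-Hochberg adjustment over 13832 genes, threshold 0.05). Each standard error was derived as |log2 fold change| over the square root of F. CPM values, and whether groups overlapped in them, rest on library totals alone. The log2 fold changes also took TMM factors, which were 1.006 to 1.014 in control and 0.9845 to 0.993 in knockdown. An exact permutation test of 3 against 3 cannot go below p = 0.1, so it was not used. Coordinates and lengths come from GENCODE version 44 lifted to GRCh37, and promoters from RefSeq (GRCh38.p14). The scripts were tested on simulated data. The members and lists were chosen with earlier results of these data known. Values of 2 listed genes are not reported here, though counts over the lists include them. Named are the members, up to 3 called genes of smallest p per list and direction, genes near TULP3 and the 5 nearest profiles; others named from the lists were chosen after their values were seen. Alternatives were other scalings (DESeq2 size factors, upper quartile, library size), filters, DESeq2 1.42.0, limma 3.58.1 (voom, and log2 of the deposited values plus 1), a replicate block and leaving out each library.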

Additional observations from a re-analysis of the deposited data

How the results depend on the processing

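Under 15 alternatives the log2 fold change of TULP3 ranged from 1.32 to 1.38 (1.33 to 1.38 with 1 library left out) and that of TUB from -1.80 to -1.66. No member called in edgeR changed sign, and all 120 alternative values of the members moved by less than 1 SD between replicates. DESeq2's Wald test called 1637 genes lower against 2653, and 16 of the pathway genes beyond the members against 25, of which 8 were lower against 14; the cause was not tested. With 1 library left out, 4319 to 5256 genes were called (2173 to 2658 higher, 2144 to 2598 lower) and 18 to 28 pathway genes (8 to 13 higher, 8 to 15 lower). For the pathway genes, the lowest total and the fewest higher came without knockdown replicate 2. The fewest lower came without control replicate 2. Of the genes called, 50.2% were higher, against 43.9% with upper-quartile factors and 40.8% with library size alone, where 10 pathway genes were higher and 18 lower against 11 and 14. With exon-union lengths 1 member in place of 2 stood above TULP3 in control cells. Of 1030 alternative values for pathway, neighbouring and IRS2 genes, 971 kept their direction and side of the threshold or stayed uncalled, and 0 called ones reversed. No effect shared by same-numbered libraries was seen: their deviations had correlations of 0.045, -0.011 and -0.098. Whether same-numbered cultures were handled together cannot be told from these values. With the replicate block 4862 genes, 23 pathway genes and the same direction for TULP3 (1.35) were obtained. Among the 22 named pathway genes and the 8 members that passed the filter, the block removed the call of DISP2 alone (edgeR adjusted p 0.061). Depth limited GLI1, HHIP, IHH and DHH, whose counts were too few for a test.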
